A study of Homo sapiens with 12 samples.

Results

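Nuclear genes for the subunits of the mitochondrial respiratory chain and of ATP synthase made up 84 of the 61163 genes listed in the count tables. They were selected by gene symbol: every symbol that begins with ATP5, with UQCR, or with NDUF followed by A, B, C, S or V, together with the 4 SDH genes, CYC1 and 10 subunits of cytochrome c oxidase. Genes of the NDUFAF assembly factors, pseudogenes, antisense and divergent transcripts and second copies of a symbol were left out. Of the 84 genes, 37 encode subunits of complex I (7 of its core and 30 accessory), 4 of complex II, 10 of complex III, 12 of complex IV and 19 of ATP synthase, and 2 are readthrough transcripts that join a subunit gene to its neighbour (NDUFC2-KCTD14 and ATP5MF-PTCD1). The genes lie on 22 chromosomes.

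RNA was sequenced from HEK293T cells, a human embryonic kidney line, either wild type (HEK WT) or with HNRNPUL1 knocked out by CRISPR-Cas9 with guides to exons 2 and 3 (HEK UL1 KO). Each genotype was separated into a nucleolar (NO) and a cytoplasmic-nuclear (CN) fraction, with 3 libraries per genotype and fraction. No other treatment is named in the labels, and whether HEK UL1 KO is 1 clone is not given in the sources used here. The comparison of HEK UL1 KO with HEK WT asks which transcripts depend on hnRNP UL1, an RNA-binding protein of the nucleus and nucleolus, and the comparison of NO with CN asks where they are found.

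The respiratory chain passes electrons from NADH (through complex I) and from succinate (through complex II) to coenzyme Q, and from there through complex III and cytochrome c to complex IV, which reduces oxygen. Complexes I, III and IV pump protons across the inner mitochondrial membrane, and ATP synthase uses the returning protons to make ATP. All complexes but complex II combine subunits made from nuclear genes, whose mRNAs are translated in the cytoplasm, with subunits encoded in mitochondrial DNA, and nuclear respiratory factors and PGC-1 coactivators are known to control many of the nuclear genes together.

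The libraries held 37141666 to 104040073 counts, of which rRNA genes took 55.3 to 78.7% and the 84 subunit genes 0.0426 to 0.0614%. Levels are given as CPM, that is counts relative to library size, with library sizes scaled by TMM within the fraction. HNRNPUL1 itself lay between 15.4 and 17.99 CPM in HEK WT and between 4.75 and 4.86 CPM in HEK UL1 KO in CN, and it was lower in NO as well, with a log2 fold change of -2.00, so the genotypes match their labels. Of 7 markers of HEK293T cells, 0 were at 0 in any whole group, but they were not alike in the genotypes. In NO, INA was lower in HEK UL1 KO (log2 fold change -3.12, edgeR adjusted p = 0.000171). KRT8 was at 1.04 there (adjusted p = 0.0715), and neither gene overlapped between the genotypes, while the other HEK293T markers did. In a fit of all 12 libraries, the genotype difference in NO minus that in CN was 1.65 for INA and -1.12 for KRT8. Both genes were thus estimated to differ more in CN than in NO, although neither term was called (edgeR adjusted p = 0.348 and 0.265). The 8 markers of other cell types were low. Their sum did not overlap between genotypes in CN, at 0.911 to 1.66 CPM in HEK WT and 2.04 to 2.45 CPM in HEK UL1 KO, where 5 of 5 tested had a log2 fold change above 0, with a median of 0.74, and it was at most 8.61 CPM in NO. Their part in the results was not tested. The 9 nucleolar RNAs summed to 831 to 1195 CPM in CN and to far more in NO. HEK WT NO replicate 3 stood apart from the other 2 HEK WT NO libraries, with a TMM factor of 1.40 against 0.690 and 0.622. The HEK UL1 KO NO libraries had factors of 1.34, 1.09 and 1.15, so HEK WT NO replicate 3 was closer to these. Without HEK WT NO replicate 3 the factors did not overlap between the genotypes. Counts and the main genes in NO are given with and without that library, and neither version is taken as the better.

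In CN, the subunit transcripts split in direction between the genotypes, and more of them were lower than higher in the knockout. With edgeR and a threshold of 0.05 on the adjusted p, 27 of the 83 subunit genes tested (32.5%) were lower in HEK UL1 KO and 9 (10.8%) were higher, beside a background of 22.3% lower and 15.6% higher among all 27234 genes tested and of 28.5% and 16.1% among protein-coding genes. The median log2 fold change of the subunits was -0.16, that of all genes 0.04 and that of protein-coding genes -0.04. For the 11239 protein-coding genes with at least 50 mean counts it was -0.16 as well. The quartiles of the subunits were -0.36 and 0.05. CPM did not overlap between the genotypes for 35 subunits lower and 11 higher, beside 28.1% and 24.7% of all genes. Changes were moderate: 13 of the 36 genes called differed by more than 1.5-fold and 0 by more than 2-fold. The share of subunits called lower was thus close to that of protein-coding genes, and nothing is read from it about the subunits as a group.

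**Figure D1:**
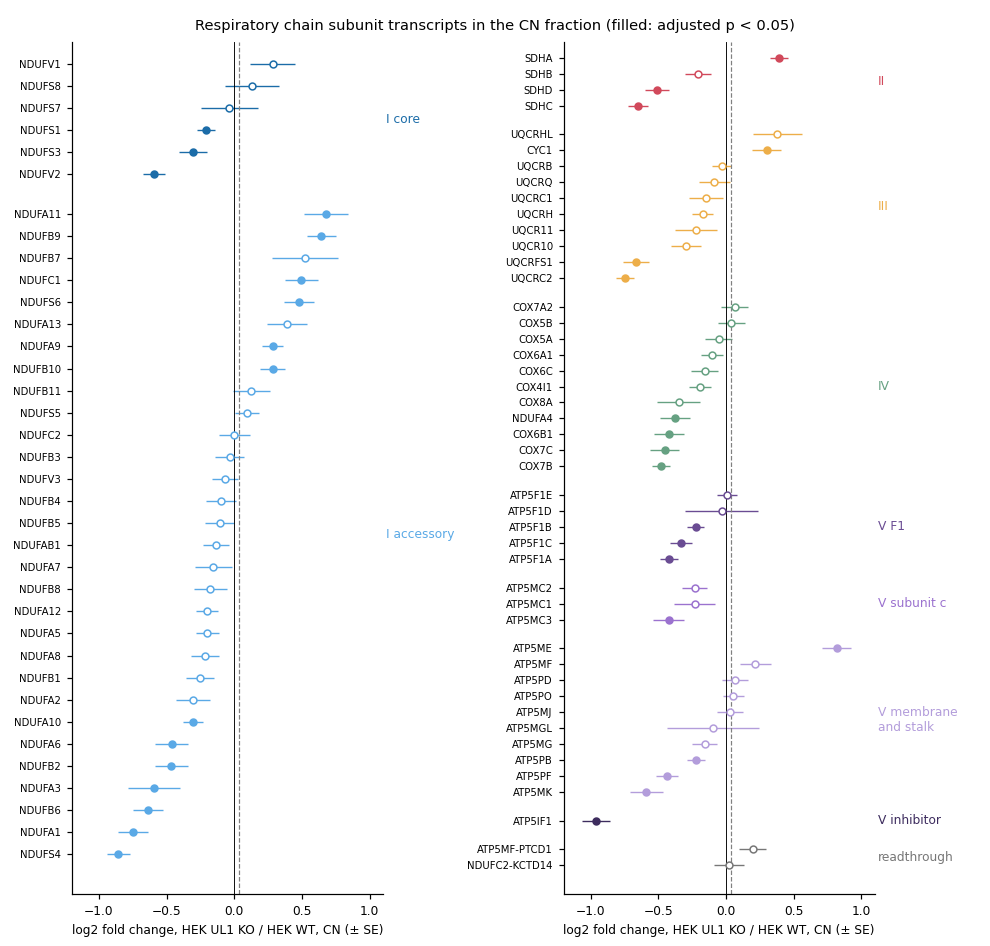
Log2 fold change of 82 of the 83 subunit genes tested in CN (x axis, HEK UL1 KO over HEK WT, bars are standard errors), grouped by complex, with filled points at an adjusted p under 0.05 and a dashed line at the median of all genes (0.04). Values run from -0.96 for ATP5IF1 to 0.82 for ATP5ME, and members of every large complex lie on both sides of the line.

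How many genes were called depended on the scaling. With total counts in place of TMM, 8 subunits were higher and 3 lower, while the median of all genes moved from 0.04 to 0.24. Relative to the median of all genes the subunits were lower by 0.20 on the log2 scale under both scalings. The same number of them, 61 of 83 (73.5%), lay below that median under each of the 4 scalings run. A change of scaling moves all genes by nearly the same amount, so neither value could differ much between scalings. The gap is to all genes. Protein-coding genes with at least 50 mean counts had a median of -0.16 under TMM, as the subunits had. With DESeq2, 5 were higher and 25 lower, and with all 12 libraries in 1 fit 0 were higher and 5 lower. Under TMM, total counts, TMM without rRNA genes and DESeq2 alike, 8 genes were called: ATP5ME, NDUFC1, SDHA, NDUFB9 and NDUFA11 were higher and ATP5IF1, NDUFS4 and UQCRC2 lower. Across all settings that left out no library, 0 genes were called higher in every setting, and the same 3 were called lower in each. RNA was measured per library and not per cell, so fewer cells expressing a gene and less of its RNA per cell cannot be told apart.

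Among the subunits called lower, the largest fall was that of ATP5IF1, which encodes the inhibitor that stops ATP synthase from hydrolysing ATP. ATP5IF1 (chr1:28236124-28238100, GRCh38) was at 13.2, 11.8 and 11.4 CPM in HEK WT CN and at 6.85, 6.42 and 5.30 CPM in HEK UL1 KO CN. All 3 knockout libraries lay below all 3 wild-type libraries, with a log2 fold change of -0.96 (SE 0.103, edgeR adjusted p = 5.56e-05). The largest rise among the subunits was that of ATP5ME (chr4:672436-674276), which encodes subunit e of the membrane part of ATP synthase, a subunit involved in joining the enzyme into dimers. Its levels were 4.93, 3.65 and 4.54 CPM in HEK WT CN and 7.52, 7.54 and 8.05 CPM in HEK UL1 KO CN. The groups did not overlap, with a log2 fold change of 0.82 (SE 0.11, adjusted p = 0.000238). For single genes with 3 libraries against 3, the exact two-sided permutation test cannot go below p = 0.1, which both genes reached.

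Of the other ATP synthase genes, the catalytic F1 part had 3 of 5 members lower and 0 higher. These were ATP5F1A (log2 fold change -0.42) and ATP5F1B (-0.23), the alpha and beta subunits, and ATP5F1C (-0.33), the gamma subunit of the central stalk, which was among the 3 most abundant subunits per length. The 3 genes ATP5MC1, ATP5MC2 and ATP5MC3 encode the same mature ring subunit c behind different import sequences. Only ATP5MC3 was called among them, at -0.42 (adjusted p = 0.0136), while ATP5MC1 and ATP5MC2 had log2 fold changes of -0.23 each with adjusted p of 0.244 and 0.0706, and a difference among the 3 was not tested. Of the 10 other membrane and stalk subunits, ATP5MK (-0.59), ATP5PF (-0.43) and ATP5PB (-0.22) were lower and ATP5ME was higher. Counting the whole enzyme, 8 of 19 genes were lower and 1 higher, with a median of -0.22. Counts for single complexes in CN, above and below, stand beside 28.5% lower and 16.1% higher among protein-coding genes. Nothing is read from them about a complex.

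Complex II, the succinate dehydrogenase that also serves in the tricarboxylic acid cycle, has 4 subunits, all nuclear, and they did not move together. SDHA (chr5:218320-268746), the flavoprotein that oxidises succinate, was at 9.77, 9.99 and 10.6 CPM in HEK WT CN and at 13.4, 12.9 and 13.5 CPM in HEK UL1 KO CN. It was higher in all 3 knockout libraries (log2 fold change 0.39, SE 0.0695, adjusted p = 0.00139). SDHC (chr1:161314381-161363206), a membrane anchor that binds heme and coenzyme Q with SDHD, was at 10.5, 10.6 and 10.7 CPM in HEK WT CN and at 6.93, 6.77 and 6.53 CPM in HEK UL1 KO CN. It was lower in all 3 (-0.65, SE 0.0710, adjusted p = 6.22e-05). SDHD (chr11:112086873-112095794), the other anchor, was at 5.62, 5.24 and 5.36 CPM against 3.62, 4.05 and 3.71 CPM and was lower too (-0.51, SE 0.0891, adjusted p = 0.00127). SDHB, the iron-sulfur subunit, had 8.20, 7.69 and 9.37 CPM against 7.76, 7.52 and 6.58 CPM, groups that overlapped (-0.21, adjusted p = 0.118).

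The rows of 3 SDHA pseudogenes held 172% as many counts as SDHA itself, and those of SDHD pseudogenes 40.6%, so that reads may have been shared between copies, and the counting options are not given in the sources used here. In CN the pseudogene rows SDHAP1, SDHAP2 and SDHAP3 had log2 fold changes of -0.00, 0.03 and 0.15, none of them called (edgeR adjusted p of 0.142 or more). The SDHD pseudogene rows SDHDP3, SDHDP6 and SDHDP7 were at -0.51, -0.53 and -0.51, close to SDHD, and SDHDP2 was at -0.13. None of these was called either (adjusted p of 0.0722 or more). The calls of SDHC and SDHD were lost with total counts (-0.45 and -0.31), where SDHA was still called, and those of SDHA (0.31) and SDHD (-0.59) in the fit of all 12 libraries. SDHA lost its call also with GAPDH as single reference, where the median of all genes was -0.31 in place of 0.04.

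Complex I takes electrons from NADH. Among its 7 core subunits encoded in the nucleus, 4 were lower in HEK UL1 KO CN and 0 higher, among them NDUFV2 (-0.59), NDUFS3 (-0.31) and NDUFS1 (-0.21). Among the 30 accessory subunits, which surround the core and stabilise it, 7 were lower and 6 higher, with a median of -0.12. NDUFS4 (chr5:53560639-53683338), an accessory subunit of the NADH-oxidising arm whose loss is a known cause of Leigh syndrome, was at 8.96, 8.72 and 8.56 CPM in HEK WT CN and at 4.97, 5.13 and 4.36 CPM in HEK UL1 KO CN. The highest knockout library lay far below the lowest wild-type library (-0.86, SE 0.0853, adjusted p = 3.4e-05). NDUFA1, a small X-linked subunit of the membrane arm, was at 6.15, 5.07 and 4.86 CPM against 3.38, 3.15 and 3.06 CPM, again without overlap (-0.75, adjusted p = 0.000456), a call that total counts did not give (-0.55).

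The accessory subunits that were higher belonged to the membrane arm and to the arm in the matrix. NDUFB9, of the membrane arm, rose from 3.96, 3.39 and 4.45 CPM in HEK WT CN to 6.17, 5.93 and 6.33 CPM in HEK UL1 KO CN (0.64, SE 0.107, adjusted p = 0.000906). NDUFA11, also of the membrane arm, rose from 1.02, 1.02 and 1.15 CPM to 1.42, 1.73 and 1.96 CPM (0.68, SE 0.161, adjusted p = 0.00747). The groups did not overlap for either gene. NDUFC1 (0.50, adjusted p = 0.00844) and NDUFS6 (0.48, adjusted p = 0.00635) were higher as well, although both lost the call without HEK UL1 KO CN replicate 1 (0.42 and 0.41) and NDUFS6 lost it with DESeq2 (0.41). With GAPDH as single reference, under which the median of all genes was -0.31, NDUFB9, NDUFA11, NDUFC1 and NDUFS6 were not called. Nor were they with all 12 libraries in 1 fit. NDUFA9 and NDUFB10 were higher by 0.28 each, calls that both lost with DESeq2, with no filter on low counts, with GAPDH as single reference and with all 12 libraries in 1 fit. NDUFA9 lost it also with total counts and in 3 of 6 fits that left out a library, and NDUFB10 in 5 of 6.

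Complex III had 2 of 10 subunits lower and 1 higher. UQCRC2 (chr16:21953361-21983660), a large matrix-facing core protein, had nearly the same level in the 3 HEK WT CN libraries, at 17.5, 17.4 and 17.5 CPM, and was at 9.96, 10.9 and 10.4 CPM in HEK UL1 KO CN. Its log2 fold change was -0.75 (SE 0.0677, adjusted p = 1.91e-05). UQCRFS1, the Rieske iron-sulfur protein, was at 6.51, 5.6 and 5.82 CPM against 3.87, 3.89 and 3.55 CPM (-0.66, adjusted p = 0.000337), and UQCRFS1P1, a pseudogene row with many of its counts, was lower by a like amount (-0.69, adjusted p = 0.00209). With total counts UQCRFS1 was not called (-0.46). CYC1, cytochrome c1, passed the threshold narrowly as higher, with 2.85, 2.53 and 2.52 CPM against 3.11, 3.41 and 3.21 CPM (0.30, SE 0.106, adjusted p = 0.046). The CYC1 call was lost with DESeq2, total counts and no filter on low counts, and in 5 of 6 fits that left out a library. GAPDH as single reference, all 12 libraries in 1 fit and a block for the replicate number did not give it either. The hinge protein gene UQCRH (-0.17, adjusted p = 0.107) and its retrocopy UQCRHL (0.38, adjusted p = 0.116) were not called.

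In complex IV, 4 of the 11 genes tested were lower and 0 higher, with a median of -0.19. They were COX7B (-0.48), COX7C (-0.45) and COX6B1 (-0.42), small nuclear subunits, and NDUFA4 (-0.38), named after complex I but since assigned to complex IV. COX7C was the most abundant of all subunits per length, at 32.9, 25.7 and 26.5 CPM in HEK WT CN and 21.3, 22.2 and 18.7 CPM in HEK UL1 KO CN, without overlap. NDUFA4L2, the hypoxia-induced relative of NDUFA4, had 1 to 5 counts per HEK WT CN library and 2 or 3 per HEK UL1 KO CN library, and was too low to test.

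**Figure D2:**
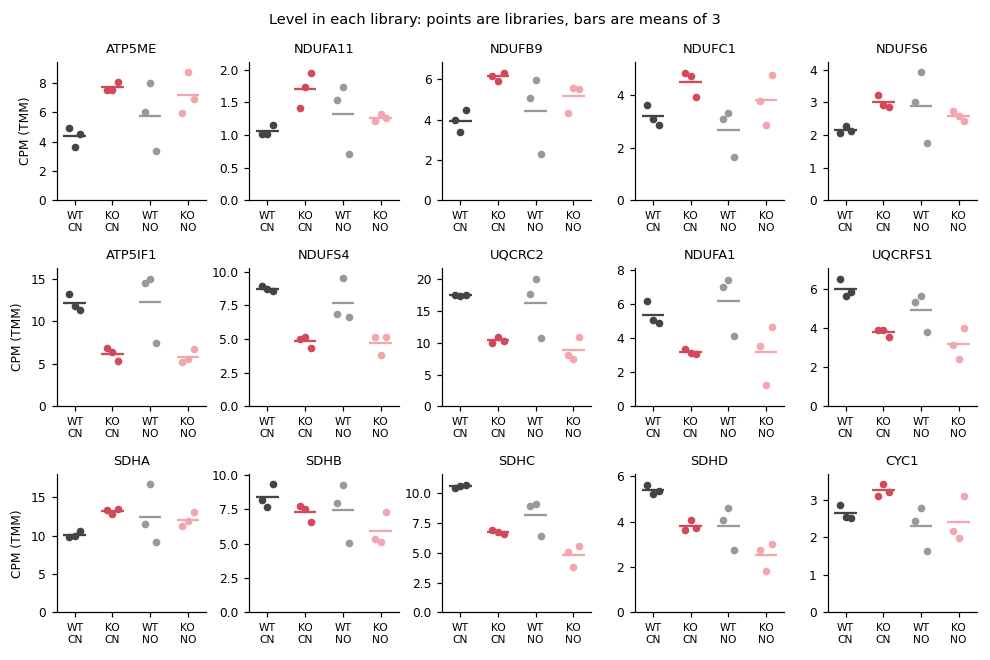
CPM of 15 subunit genes (y axes, from 0) in each of the 12 libraries, as points by genotype and fraction, with bars at the mean of 3 libraries and CPM scaled separately in CN and NO. In CN the groups of SDHC, UQCRC2 and NDUFS4 are far apart and those of SDHB overlap, and in NO the HEK WT libraries are widely spread, as for ATP5IF1 at 14.5, 14.98 and 7.42 CPM.

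Levels within HEK WT CN can be compared between genes only per transcript length, taken here from the reference transcript of each gene. The median subunit had 4.93 CPM per kb. The highest were COX7C (45.1 ± 6.30 CPM per kb, SD, n = 3), ATP5IF1 (24.1 ± 1.86) and ATP5F1C (17.8 ± 1.28), and the lowest were ATP5F1D (0.317 ± 0.0323), ATP5MGL (0.274 ± 0.00950) and NDUFA4L2 (0.0424 ± 0.0258). ATP5F1D encodes the delta subunit, of which the enzyme holds as many copies as of gamma, so its row was low beside that of ATP5F1C. Among the subunit c genes, ATP5MC2 was at 12.3 ± 1.31 CPM per kb, above ATP5MC1 (3.19 ± 0.563) and ATP5MC3 (3.17 ± 0.382), whose levels did not differ beyond their spread. For ATP5MC2 and ATP5MC3 the gap rests on the reference lengths taken, 632 and 2587 bases. Their counts in HEK WT CN were close, at 698, 570 and 649 against 786, 646 and 596. UQCRH was at 15.97 ± 0.913 CPM per kb and UQCRHL at 3.27 ± 0.527. The readthrough row NDUFC2-KCTD14 held 480, 361 and 364 counts in HEK WT CN beside 439, 332 and 333 for NDUFC2, which means that most of its counts can come from the same reads.

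Ratios of 2 subunits counted in the same library do not depend on the scaling between libraries, and they set the opposite movements within complexes side by side. The pairs were chosen after the values had been seen, so the ratios are given as a description. SDHA over SDHC was 0.933, 0.942 and 0.987 in HEK WT CN and 1.93, 1.90 and 2.07 in HEK UL1 KO CN. In NO the same ratio was 1.29, 1.84 and 1.42 in HEK WT and 2.22, 3.12 and 2.34 in HEK UL1 KO, so the knockout libraries were higher in both fractions without overlap. For SDHA over SDHD the NO values were 2.81, 3.64 and 3.33 against 4.06, 6.51 and 4.35, also without overlap, while SDHA over SDHB overlapped in NO.

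The same held in complex III and ATP synthase. CYC1 over UQCRC2 was 0.163, 0.145 and 0.144 in HEK WT CN and 0.312, 0.313 and 0.310 in HEK UL1 KO CN, and in NO it was 0.138, 0.139 and 0.152 against 0.268, 0.266 and 0.284. The ratio varied little within each genotype and fraction. ATP5ME over ATP5IF1 was 0.375, 0.310 and 0.399 in HEK WT CN and 1.1, 1.17 and 1.52 in HEK UL1 KO CN, and in NO 0.413, 0.533 and 0.450 against 1.15, 1.56 and 1.03. NDUFB9 over NDUFS4 was 0.442, 0.388 and 0.520 in HEK WT CN against 1.24, 1.16 and 1.45 in HEK UL1 KO CN, with no overlap in NO either. As a pair of like-moving subunits, ATP5F1B over ATP5F1A was 1.25, 1.23 and 1.24 against 1.35, 1.43 and 1.49 in CN and overlapped in NO.

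**Figure D3:**
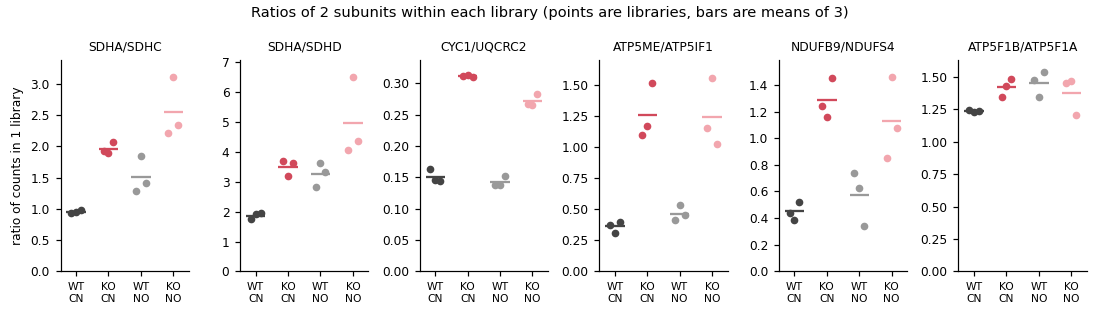
Ratio of the counts of 2 subunits in the same library (y axes, from 0) for 6 pairs, with points for libraries and bars for the mean of 3. SDHA over SDHC, CYC1 over UQCRC2 and ATP5ME over ATP5IF1 are higher in all 3 HEK UL1 KO libraries than in all 3 HEK WT libraries of both fractions, and ATP5F1B over ATP5F1A overlaps in NO.

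The regions upstream of these genes are shown for 4 members that moved apart in the same complex, ATP5ME and ATP5IF1 of ATP synthase and SDHA and SDHD of complex II. Each is the 250 bases before the transcription start in RefSeq (GRCh38.p14), written along the gene's strand, and capitals mark matches to the motif of nuclear respiratory factor 1 (NRF1, its GC-rich consensus with 1 free position) or to an ETS motif of the kind bound by NRF-2/GABP (CCGGAAG), both searched on both strands.
ATP5ME (chr4:674277-674526, minus strand): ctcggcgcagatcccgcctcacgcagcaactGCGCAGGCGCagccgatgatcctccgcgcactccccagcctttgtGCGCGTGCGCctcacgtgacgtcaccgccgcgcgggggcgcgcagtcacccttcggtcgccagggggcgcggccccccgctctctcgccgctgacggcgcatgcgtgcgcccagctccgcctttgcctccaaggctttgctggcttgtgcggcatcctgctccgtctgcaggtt
ATP5IF1 (chr1:28235874-28236123, plus strand): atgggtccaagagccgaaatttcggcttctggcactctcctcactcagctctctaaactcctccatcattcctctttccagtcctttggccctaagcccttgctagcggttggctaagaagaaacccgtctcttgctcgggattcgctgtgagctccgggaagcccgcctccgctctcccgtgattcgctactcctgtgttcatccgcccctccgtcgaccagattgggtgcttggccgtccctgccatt
SDHA (chr5:218070-218319, plus strand): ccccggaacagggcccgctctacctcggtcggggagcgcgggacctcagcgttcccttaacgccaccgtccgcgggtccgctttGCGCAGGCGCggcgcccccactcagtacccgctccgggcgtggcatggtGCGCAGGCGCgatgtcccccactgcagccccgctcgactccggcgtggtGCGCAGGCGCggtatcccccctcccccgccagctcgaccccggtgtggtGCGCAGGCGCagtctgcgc
SDHD (chr11:112086623-112086872, plus strand): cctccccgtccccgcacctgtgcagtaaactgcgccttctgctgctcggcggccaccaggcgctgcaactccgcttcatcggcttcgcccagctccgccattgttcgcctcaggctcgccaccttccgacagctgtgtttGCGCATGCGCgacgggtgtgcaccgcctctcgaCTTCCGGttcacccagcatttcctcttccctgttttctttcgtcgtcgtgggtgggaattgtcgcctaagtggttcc
ATP5ME has NRF1 matches that begin at positions -219 and -174 from the start, SDHA at -166, -117, -68 and -19, and SDHD at -110 with an ETS match at -77, whereas ATP5IF1 has neither in this window.

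Promoters were found for 68 of the 84 genes. The NRF1 motif was in 14 of them (20.6%) and in 5.07% of all 35116 promoters or 6.58% of the protein-coding ones. The ETS motif was in 17 (25%), beside 8.52% and 10.8%. The GC box bound by SP factors (GGGCGG) was in 40 (58.8%), beside 42.6% and 54.1%. Among genes higher in HEK UL1 KO CN, 4 of 7 promoters held the NRF1 motif and 0 of 7 the ETS motif, and among genes lower 4 of 23 and 7 of 23 did. These counts describe letters in a window and were not tested.

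Transcripts of 15 regulators of mitochondrial biogenesis were measured as well, which include factors that act on such promoters and factors of mitochondrial DNA. In CN 8 were lower and 1 was higher, beside 28.5% lower and 16.1% higher among protein-coding genes, and the median was -0.30. The exception was PPARGC1A, the coactivator PGC-1alpha, at 2.50, 3.10 and 1.76 CPM in HEK WT CN and 5.84, 5.86 and 7.18 CPM in HEK UL1 KO CN (1.36, SE 0.175, adjusted p = 0.000183). In NO its levels did not overlap either, at 9.01, 6.16 and 12.2 CPM against 18.3, 17.4 and 17.9 CPM (0.97, adjusted p = 0.136). NRF1 (-0.36), GABPA (-0.48), YY1 (-0.30) and TFAM (-0.27, adjusted p = 0.0497), the factor that packages mitochondrial DNA, were lower in CN, and ESRRA was at -0.40 (adjusted p = 0.161).

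Assembly factors, which build the complexes without staying in them, had 18 of 54 genes (33.3%) lower and 5 higher in CN, a share close to the 28.5% of protein-coding genes called lower, with a median of -0.22. The lowest was NDUFAF2 (adjusted p = 7.6e-06), an assembly factor of complex I, and the highest NDUFAF1 (0.76, adjusted p = 0.00546), another. Of the 13 subunits encoded in mitochondrial DNA, 2 were higher and 4 lower, beside 15.6% and 22.3% of all genes, with a median of -0.15. Their summed counts were 6.49 to 6.87 times those of the 84 nuclear subunits in HEK WT CN and 6.93 to 8.39 times in HEK UL1 KO CN. Cytochrome c (CYCS), the carrier between complexes III and IV, was lower (-0.55, adjusted p = 0.0021).

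The change of a subunit gene in CN went with that of the protein-coding genes around it. For the 80 members with at least 5 protein-coding neighbours of at least 50 mean counts within 2 Mb, other members left out, the log2 fold change and the neighbours' median had a Pearson correlation of 0.688 and a Spearman correlation of 0.664 across genes, and for the other 10929 protein-coding genes these were 0.453 and 0.504. Genes are not independent replicates, windows of nearby genes share neighbours, and the values come from the same libraries, so the correlations are descriptive. The median of the 11239 protein-coding genes with at least 50 mean counts was -0.16, and 47 of the 80 members had neighbours above it. Of the higher members 9 of 9 did, and 21 of 26 lower members had neighbours below it. NDUFS4 (-0.86) had neighbours with a median of -0.93, of which 11 of 11 were called lower, and ATP5IF1 (-0.96) had a median of -0.65, with 21 of 32 lower. CYC1 (0.30) had a median of 0.72, with 26 of 33 higher, and SDHA and NDUFS6, which share a window, a median of 0.40, with 9 of 18 higher.

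For other members the neighbourhood differed from the gene. UQCRC2 (-0.75) had neighbours at a median of -0.28, and NDUFB9 (0.64) and NDUFA11 (0.68) at 0.02 and 0.06. NDUFA2 ran opposite to its surroundings, at -0.30 (adjusted p = 0.0814, not called) with neighbours at 0.53, of which 34 of 61 were higher; it was picked after its values had been seen. The part of chromosomal position in the changes of the subunits was not tested.

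**Figure D4:**
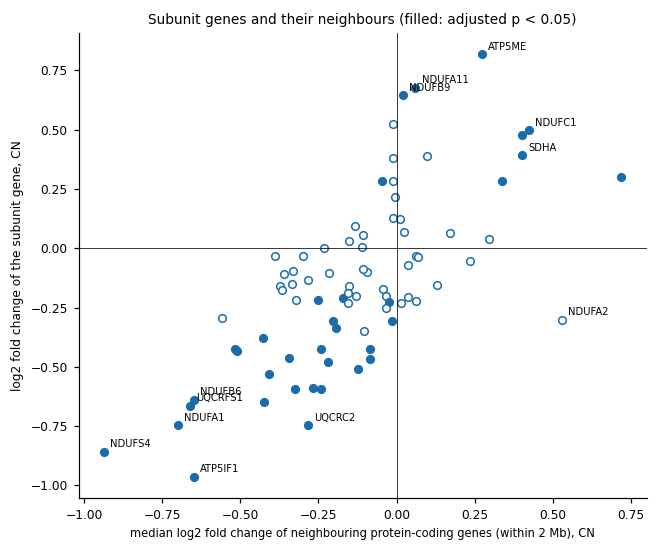
Log2 fold change of each of 80 subunit genes in CN (y axis, HEK UL1 KO over HEK WT) against the median log2 fold change of protein-coding neighbours within 2 Mb (x axis). Points rise from NDUFS4 at lower left (-0.93, -0.86) to the genes with higher neighbours at right, with NDUFA2 (0.53, -0.30) away from the others.

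In NO, where ATP5MGL and NDUFA4L2 were too low to test, 0 of the 82 remaining subunits were called in either direction with edgeR, beside 0.574% lower and 0.365% higher among all 34836 genes tested. At an unadjusted p under 0.05, 14 were lower and 0 higher, beside 3418 lower and 2156 higher among all genes, and DESeq2 called 1 lower, ATP5IF1 (-1.13, adjusted p = 0.0221). The log2 fold change was below 0 for 76 of the 82, with a median of -0.40 beside 0.00 for all genes. A median of protein-coding genes alone is not given for NO. The standard errors were wider than in CN, with a median of 0.31 against 0.105. The nucleolar RNAs differed as well between the NO libraries of the genotypes, at a sum of 34259 to 49088 CPM in HEK WT and 18409 to 29943 CPM in HEK UL1 KO, with a median log2 fold change of -0.85 over the 9, and their part in the result was not tested.

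The count in NO turned on HEK WT NO replicate 3, without which the TMM factors did not overlap between the genotypes. Without that library, 43 of 83 subunits were lower and 0 higher, beside 15.3% lower and 9.87% higher among all genes, 81 of 83 were below 0, and the median was -0.68 against 0.09 for all genes. The share of protein-coding genes is not given for NO. In CN more of them than of all genes were called lower (28.5% against 22.3%). Nothing is therefore read from these counts about the subunits as a group. The median of the subunits was -0.28 without HEK WT NO replicate 1 and -0.20 without replicate 2. Scaling mattered as well: with total counts the median of the subunits was 0.14 and that of all genes 0.40, so the subunits were below the median of all genes under both scalings but not below 0 under both. ATP5IF1 was at 14.5, 14.98 and 7.42 CPM in HEK WT NO and at 5.18, 5.58 and 6.71 CPM in HEK UL1 KO NO, groups that did not overlap (-1.08, SE 0.309, adjusted p = 0.108, and -1.36 with adjusted p = 0.00196 without HEK WT NO replicate 3). UQCRC2 was at 17.7, 20.1 and 10.8 CPM against 8.06, 7.44 and 10.9 CPM, and NDUFS4 at 6.86, 9.5 and 6.66 CPM against 5.12, 3.81 and 5.16 CPM. UQCRC2 overlapped between the genotypes through HEK WT NO replicate 3, with a log2 fold change of -0.88, and NDUFS4 did not overlap (-0.70). Without that library both were called, at -1.12 (adjusted p = 0.00675) and -0.81 (adjusted p = 0.0247).

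The 5 genes with the largest rise in CN were not called in NO. ATP5ME (0.32), NDUFC1 (0.52) and NDUFB9 (0.22) were above 0 and NDUFA11 (-0.04) and NDUFS6 (-0.15) below, all with adjusted p of 0.414 or more. Without HEK WT NO replicate 3, ATP5ME was at 0.024, NDUFC1 at 0.24 and NDUFB9 at -0.12, and none of the 5 was called. ATP5F1D had the lowest log2 fold change, -1.74 (adjusted p = 0.0867), from 24, 27 and 18 counts in HEK WT NO and 21, 8 and 5 counts in HEK UL1 KO NO, and it was called without HEK WT NO replicate 3 (-2.08, adjusted p = 0.00314). CPM did not overlap between genotypes for 6 subunits lower and 0 higher, beside 9.17% and 11% of all genes. Whether the genotype difference itself changed with the fraction was tested as an interaction, in which 0 of 84 subunits passed, beside 0.114% of 37806 genes. At an unadjusted p under 0.05 in edgeR, 1 subunit was found, ATP5F1D (-1.53, adjusted p = 1), and DESeq2 called 0. A genotype difference that depends on the fraction was therefore not shown for any subunit.

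Between the fractions, most subunit transcripts had a log2 fold change of NO over CN below the median of all genes. In HEK WT, 28 of 83 were lower in NO than in CN and 0 higher, beside 20.9% and 31.9% of all genes and 30.3% and 23.6% of protein-coding genes, and the median was -0.41 beside 0.02 for all genes. The share called lower in HEK WT was close to that of protein-coding genes, and nothing is read from it about the subunits. In HEK UL1 KO, 75 of 83 were lower and 0 higher, beside 35.6% and 40.7% of all genes and 49.8% and 27.9% of protein-coding genes, with a median of -0.80 beside 0.03. Set against the median of all genes, 80 of 83 subunits in HEK WT and 83 of 83 in HEK UL1 KO were lower in NO under each of the 4 scalings, although with total counts 0 were called lower in either genotype. A change of scaling hardly moves a gene relative to that median, so these numbers could hardly differ between scalings.

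In HEK WT the gene furthest toward CN was COX8A, a small subunit of complex IV, with 327, 273 and 245 counts in the CN libraries and 65, 62 and 104 in the smaller NO libraries (-1.39, SE 0.197, adjusted p = 0.00345). It was followed by SDHD (-0.99, SE 0.170, adjusted p = 0.004) and SDHC (-0.86, SE 0.144, adjusted p = 0.00396), the anchors of complex II. SDHA was at -0.19 (adjusted p = 0.374), with counts of 822, 835 and 835 in CN and 447, 542 and 540 in NO. All 3 genes of subunit c were lower in NO in HEK WT. In HEK UL1 KO, COX8A (-1.35), SDHD (-1.18), SDHC (-1.09) and SDHA (-0.74) were all lower in NO.

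Of the 13 subunits encoded in mitochondrial DNA, all were higher in NO in HEK WT, with a median of 1.69 and beside 31.9% of all genes. In HEK UL1 KO 5 of 13 were called higher, a share near the 40.7% of all genes, with a median of 0.59. Within a library, their counts were 21.8 to 38.1 times those of the 84 nuclear subunits in HEK WT NO and 17.2 to 21.1 times in HEK UL1 KO NO, above all CN libraries of both genotypes. RNA of the mitochondrial matrix was thus present in NO libraries at a higher ratio to the mRNAs of nuclear subunits, and its part in the differences between fractions was not tested.

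**Figure D5:**
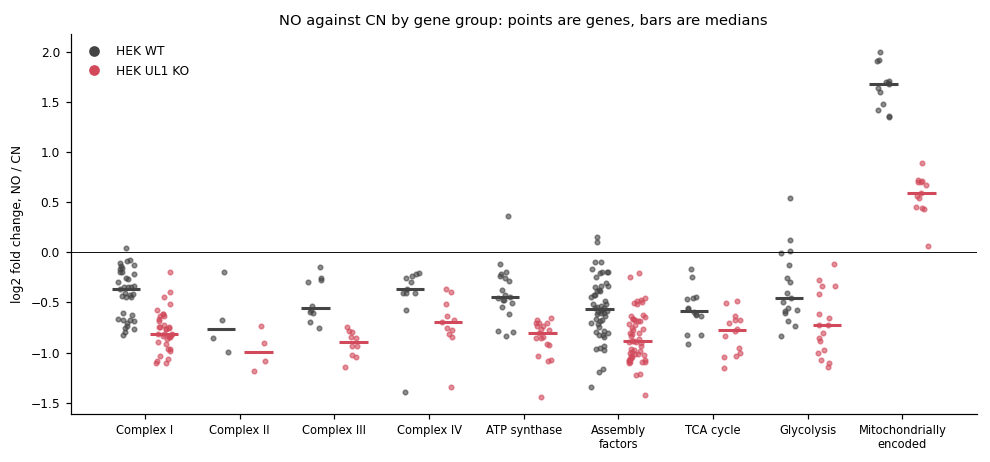
Log2 fold change of NO over CN (y axis) for genes of each complex and of related lists (x axis), with dark points for HEK WT, red points for HEK UL1 KO and bars for medians. Nuclear subunits of all 5 complexes have medians below 0 in both genotypes, and the mitochondrially encoded subunits lie above 0, with medians of 1.69 and 0.59.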

How the data were processed

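Total RNA of the NO and CN fractions was sequenced, with 3 libraries for each genotype and fraction. Per the paper's methods and the submitters' processing notes, the authors trimmed reads with cutadapt 3.7, aligned them to GRCh38 with STAR 2.7.8 and counted genes with featureCounts, and deposited raw counts per gene as 1 table for each fraction. Strand and multi-mapping options of the counting are not given in the sources used here. The values of 1 gene are counted in the totals and not reported here on their own. All 12 columns were matched by their labels, and 0 were left unmatched.

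Genotypes were compared in each fraction, and fractions in each genotype, with edgeR 4.0.16 (R 4.3.3, limma 3.58.1): quasi-likelihood F test on the counts, TMM, filterByExpr with a minimum count of 10 and total count of 15, and Benjamini-Hochberg adjustment over all genes tested, called under 0.05. The interaction was fitted on all 12 libraries. DESeq2 1.42.0 was an alternative, beside other scalings, filters and left-out libraries. Fold changes are fitted log2 values with standard errors. The test script was checked on simulated counts.

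Whether replicates come from separate cultures is not given in the sources used here, so p values measure the spread between these libraries, which may be technical. Replicates differed by more than sampling noise. The members, gene lists and pairs were chosen with earlier results of these data known. Genes named in each fraction are up to 5 with the highest and 5 with the lowest log2 fold change among those called, without overlap and with a mean of at least 50 counts, up to 3 of each direction between fractions in HEK WT, the 3 highest and 3 lowest per kb, and a set of isoforms, complex II, CYC1 and ATP5IF1. Genes given in other lists and by complex were added to these after their values were seen. Promoters are from RefSeq (GRCh38.p14), and figures were drawn with matplotlib 3.10.9.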

Additional observations from a re-analysis of the deposited data

How the results depend on the processing

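Counts of subunits called and their medians depended on the scaling, the filter and the libraries fitted. In CN, DESeq2 called 5 higher. Total counts gave 3 lower and a median of 0.038, and GAPDH as single reference 1 higher, 46 lower and a median of -0.51. With that reference 4.01% of all genes were higher and 33.3% lower, with a median of -0.31. All 12 libraries in 1 fit gave 0 higher and 5 lower. Leaving out 1 library gave 5 to 14 higher (5 without HEK UL1 KO replicate 1, 14 without HEK WT replicate 3) and 17 to 25 lower (17 without HEK UL1 KO replicate 3). In NO, lower calls were 1 with DESeq2, 2 with no filter, 3 with all 12 libraries and 0 to 43 with 1 library left out (43 without HEK WT replicate 3), the U3 reference gave 4 higher, and the median was 0.14 with total counts and 0.51 with the reference. With the U3 reference 32.3% of all genes were higher, and their median was 0.83, above that of the subunits. The U3 gene used, SNORD3A, was itself at -0.80 in NO under TMM, without overlap between the genotypes.

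Between fractions in HEK WT, lower calls were 0 with total counts and with the reference, 43 with no filter, 16 with at least 10 counts in every library, 51 with all 12 libraries and 16 to 49 with 1 left out (16 without CN replicate 1, 49 without NO replicate 2). Medians there were -0.66 with DESeq2, -0.10 with total counts, 0.20 with the reference, -0.64 with no filter, -0.18 with at least 10 counts, -0.65 with all 12 and -0.69 to -0.23 with 1 left out. With the reference the median of all genes was 0.66 in HEK WT and 1.065 in HEK UL1 KO. In HEK UL1 KO, total counts gave 1 higher and 0 lower, the reference 2 and 0, no filter 1 higher, at least 10 counts 34 lower and all 12 libraries 1 higher, and medians were -0.97 with DESeq2, -0.050 with total counts, 0.22 with the reference, -0.97 with no filter, -0.36 with at least 10 counts and -0.999 to -0.65 with 1 left out.

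The sign of some single genes changed with the setting. In CN these were NDUFC2-KCTD14 (-0.041 DESeq2, -0.33 reference, -0.012 no filter, -0.061 all 12, -0.057 to 0.15 with 1 library left out), ATP5F1D (0.16 total counts, 0.044 at least 10 counts, -0.066 to 0.013 with 1 left out), ATP5MGL (0.12 with total counts, -0.30 to 0.12 with 1 left out), UQCRH (0.038) and SDHB (0.0089) with total counts, and CYC1 with the reference (-0.052). In NO they were NDUFA11 (0.53 total counts, 0.00015 TMM without rRNA, 0.81 reference, 0.10 at least 10 counts, 0.037 all 12, -0.39 to 0.23 with 1 left out), NDUFS6 (0.42 total counts, 0.71 reference, -0.43 to 0.16 with 1 left out), NDUFB9 (-0.12 to 0.52 with 1 left out), and, with the reference, NDUFS4 (0.18), UQCRC2 (0.036), NDUFA1 (0.0075) and UQCRFS1 (0.28). The interaction of genotype and fraction called 0 subunits under each alternative run. The causes were not tested.

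Same-numbered libraries did not deviate together from their group means (correlations of -0.481 to -0.00447). Each correlation rests on deviations from the mean of only 3 libraries, so it cannot tell whether same-numbered libraries came from the same cells. The main fits did not pair them. With the replicate block 8 subunits were higher and 23 lower in CN, 16 were lower in NO in HEK WT, and NDUFA11 in NO was at 0.017.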

Other observations

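Enzymes that feed the respiratory chain moved in CN as well. Of 14 enzymes of the tricarboxylic acid cycle, 9 were lower in HEK UL1 KO with edgeR and 1 higher, with a median log2 fold change of -0.41 beside 0.04 for all genes. Among all genes 22.3% were lower and 15.6% higher, and among protein-coding genes 28.5% and 16.1%. FH, the fumarase that acts on the product of complex II, was at -1.26 (adjusted p = 3.94e-06), and CS, citrate synthase, at -0.43 (adjusted p = 0.000526). IDH2, the mitochondrial NADP-linked isocitrate dehydrogenase, was higher, at 0.70 (adjusted p = 0.00443). Of 17 glycolytic enzymes, 5 were higher and 5 lower, with a median of 0.02. ENO2, the neuronal enolase, was at 1.22 (adjusted p = 0.00988) and ALDOC at 0.87 (adjusted p = 0.0238). FH was lower in NO too (-1.40, adjusted p = 0.0387), as was TFB2M, a transcription factor of mitochondrial DNA (-1.46, adjusted p = 0.0379), which in CN was at -1.66 (adjusted p = 7.12e-06).

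Among rows left out of the 84 genes, 18 were second copies of 7 members, and 17 of the 18 stayed within 5% of the member's count in every library. Pseudogene rows existed for 49 members and held over 20% of the member's counts for 5 of them: SDHA (172%), COX6A1 (70.8%), UQCRFS1 (42.2%), SDHD (40.6%) and NDUFB3 (24.1%). ATP5F1AP2, a pseudogene of ATP5F1A, was lower in CN (-1.09, edgeR adjusted p = 0.0155). So was COX7CP1, a pseudogene of COX7C (-0.77, adjusted p = 0.000544).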
